A study of Mus musculus with 2 samples.

Results

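Adult mice with a Dnmt3L+/- sire gave tail DNA that was compared with control tail DNA on 1 array for comparative genomic hybridisation, in which 2 genomic DNA samples in different dyes compete for the same probes. The probes described are those on chromosomes 1 to 19, read without control spots and without spots marked as outliers. They numbered 40513, of 42396 probes kept on this array and 42404 probe names on the array design. The offspring were adult C57BL/6 females labelled Dnmt3L+/+, and their DNA carried Cy3. The control DNA, in Cy5, came from a C57BL/6 colony described as unrelated and is also labelled as adult female and Dnmt3L+/+, so the altered allele is, by the labels, in neither channel. The colony of origin and the genotype of the sire differ together and cannot be told apart. With age, number and pooling of animals not given in the sources used here, nothing can be said of how many they were. A further array compared whole embryos of a Dnmt3L+/- sire at E10.5 (Cy5) with embryos of a control cross (Cy3), with (FVB/NJ x C57BL/6)F1 in 1 label and C57BL/6 in another. It is used here only to show the same probes in another pair of samples. Each stage has 1 array and no replicate, so no difference carries a test, and every SD is a spread over probes or spots of 1 array.

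Dnmt3L is a catalytically inactive relative of the DNA methyltransferases that guides them to set methylation in germ cells. In mice it is needed in male germ cells to methylate and silence transposons and paternally imprinted control regions. Male germ cells lacking it fail in meiosis. The series asks about the genome of offspring whose sire carries 1 working copy. In this assay a probe in a region with fewer DNA copies in offspring than in control has a log2 ratio below 0, and DNA methylation is not measured.

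All ratios are offspring over control, log2 of the processed signals centred on the median of the array. X chromosome probes went against the labels of 2 females: their median was −0.86 (SD 0.50, 1569 probes), a signal ratio of 0.552, with −0.86 on the embryo array. Centring on autosomal probes alone moved the chromosome medians by about 0.010. The adult array was dim, with median background-subtracted signals of 40.8 for offspring and 56.3 for control, and 39437 autosomal probes (97.3%) were usable, which means well above background in both channels, against 99.9% on the embryo array. Over a grid of 16 blocks of spots the median ratio of autosomal probes ran from −0.12 to 0.16, although neighbouring spots hold probes of scattered genome positions. The SD of the 19 autosome medians was 0.0056. Values called corrected for array position had the local median over the array subtracted.

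A stretch of chromosome 3 was about 0.520 of control in the offspring over 802 kb, and a stretch of chromosome 9, called in fewer settings, was at 0.707 over 569 kb. The chromosome 3 stretch ran from 141049857 to 141851709 in the coordinates of the files, with the build not given in the sources used here, and the chromosome 9 stretch ran from 51459631 to 52029072. No probe sequence is printed here, so the stretches are shown through promoters of genes in them, from RefSeq on GRCm38.p6, matched by symbol for 9 genes. Each runs from 250 bases before to 50 bases after the start of the gene, is written 5′ to 3′ on the strand of the gene, and has its CG pairs, the sites of DNA methylation in mammals, in capitals. Gbp2b lies at chr3:142594597-142594896 (plus strand) and Gtf2b at chr3:142764997-142765296 (plus strand), Arhgap20 at chr9:51765101-51765400 (plus strand) and Fdx1 at chr9:51963553-51963852 (minus strand). They are shown because probes named for their genes lie inside the stretches, and their counts of CG pairs differ. The GRCm38 positions and the coordinates of the stretches were not mapped to each other. Whether each promoter itself lies inside a stretch was therefore not analysed.
Gbp2b: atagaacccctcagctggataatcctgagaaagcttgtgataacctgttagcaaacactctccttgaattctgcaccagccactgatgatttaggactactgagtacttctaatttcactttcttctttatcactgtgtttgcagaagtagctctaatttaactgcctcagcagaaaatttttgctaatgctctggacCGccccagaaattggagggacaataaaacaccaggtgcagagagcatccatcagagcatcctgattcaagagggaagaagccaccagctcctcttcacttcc
Gtf2b: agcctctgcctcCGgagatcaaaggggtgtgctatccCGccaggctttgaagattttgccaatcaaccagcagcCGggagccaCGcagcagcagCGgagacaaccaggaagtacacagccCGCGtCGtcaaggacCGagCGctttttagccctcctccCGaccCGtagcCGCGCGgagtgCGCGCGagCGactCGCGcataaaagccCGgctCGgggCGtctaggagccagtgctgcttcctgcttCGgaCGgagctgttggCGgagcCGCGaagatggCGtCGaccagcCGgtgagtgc
Arhgap20: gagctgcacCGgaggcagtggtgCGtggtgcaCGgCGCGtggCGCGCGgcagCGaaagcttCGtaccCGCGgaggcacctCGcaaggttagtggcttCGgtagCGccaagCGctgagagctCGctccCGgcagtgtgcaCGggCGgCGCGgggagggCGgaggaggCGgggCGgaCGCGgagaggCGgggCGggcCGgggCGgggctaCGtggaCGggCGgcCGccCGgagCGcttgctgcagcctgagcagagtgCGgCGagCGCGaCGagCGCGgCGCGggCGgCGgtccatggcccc
Fdx1: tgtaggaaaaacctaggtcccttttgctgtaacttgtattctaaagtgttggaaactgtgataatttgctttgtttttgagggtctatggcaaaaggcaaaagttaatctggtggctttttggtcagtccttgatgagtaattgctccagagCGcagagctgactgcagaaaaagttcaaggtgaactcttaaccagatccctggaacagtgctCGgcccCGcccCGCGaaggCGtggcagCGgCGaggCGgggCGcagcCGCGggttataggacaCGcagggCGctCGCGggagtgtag
The promoter of Gbp2b held 1 CG pair and that of Gbp2 held 2, against 32 in Gtf2b, 41 in Pkn2, 48 in Arhgap20 and 16 in Fdx1. The median over 32851 promoters was 7, with quartiles of 3 and 20.

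All 21 probes of the chromosome 3 stretch lay below 0, from −1.56 to −0.33, and 17 of them were at least 1.5-fold lower in offspring. Among the 40513 autosomal probes 1636 were at least that much lower (4.04%). Gtf2b, the general transcription factor TFIIB, had processed signals of 559 and 705 in offspring, against 1181 and 1269 in control, and log2 ratios of −1.10 and −0.87. Pkn2, a protein kinase, had 931 and 913 in offspring and 1981 and 1838 in control, with ratios of −1.11 and −1.03. Each of these 4 probes was dimmer for offspring than for control. Ccbl2 (now Kyat3), an aminotransferase of kynurenine metabolism, had −0.96 and −1.15, and Pdlim5, a PDZ and LIM domain protein of the actin cytoskeleton, −0.82 and −0.97. On the embryo array the 21 probes of the stretch had a median of −0.88, from −1.91 to −0.099, and all 21 lay below 0.

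The guanylate-binding proteins in this stretch are GTPases induced by interferon. The 6 probes named Gbp1 (now Gbp2b) ran from −1.56 to −0.45, with a median of −0.82 (SD 0.39). They are placed from 141474599 to 141541704, and whether they all lie in Gbp2b was not analysed. Gbp2 had −0.51 and −0.53, with signals of 800 and 763 in offspring against 1125 and 1089 in control. On the embryo array these Gbp2 probes had −0.39 and −1.45. The single probe named Nrap, at −0.33, rested on dim signals of 89.9 in offspring and 111 in control, and the error model of the scanner software gave its ratio an error of 1.47. Whether it lies in the gene Nrap was not analysed. The other 20 errors were at most 0.44.

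The left edge of the chromosome 3 stretch lay within Bmpr1b, a receptor of bone morphogenetic proteins. The 3 nearest probes outside it, also of Bmpr1b, had 0.034, −0.26 and 0.025, and the probe inside had −0.86. The probes on either side of this edge were 85.6 kb apart. To the right the last probe, of 9530052C20Rik, had −1.15, and the next, of Gm1651, lay 1241 kb on at −0.23. No autosomal probe read the interval between them, so the right edge is not set by these data. In the order of GRCm38 the genes Gbp5, Gbp7 and Gbp3 lie between Pdlim5 and Gbp2b, and no autosomal probe carried these names. Whether some of the probes named Gbp1 lie in these genes was not analysed.

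The spots of the 21 probes were spread over columns 1 to 193 and rows 3 to 197 of the array. Local medians there ran from −0.12 to 0.17, and corrected for array position the median of the stretch was −0.98 with all 21 probes still below 0. Of the 10 lowest ratios among the 20256 brighter autosomal probes, 8 lay in this stretch. With normexp background correction, which starts from raw signals and adds an offset of 50, the median was −0.45. The stretch was called in all 16 settings of the segmentation that were run.

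The chromosome 9 stretch held 9 probes, all usable, with ratios from −0.61 to −0.34, a median of −0.50 and an SD of 0.084. It was not called by the equal-weight segmentation of the ratios as given. Of the 16 settings 5 called it: normexp, the correction for array position, a lower penalty (factor 2 in place of 3), and weights by the spread of the signal class, alone or with that correction. The weights were chosen after the spread was seen to depend on signal. Its shift was 0.584 of the X shift of the same array. Arhgap20, a GTPase-activating protein, had processed signals of 359, 1256 and 4609 in offspring, against 514, 1730 and 5953 in control. Each probe was lower in offspring, with ratios of −0.54, −0.48 and −0.39. Fdx1, the ferredoxin that passes electrons to mitochondrial cytochromes P450 in steroid synthesis, had −0.50 and −0.34. The transcript AK086943 between them had −0.54 and −0.56, and 2 unnamed probes further left had −0.61 and −0.49. These 2 started at 51459631 and 51806863 with no autosomal probe between them, so the left part of the stated length rests on 1 probe.

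On both sides of the chromosome 9 stretch the nearest probe lay above 0, but those further left did not. The next probe to the left, of 1810046K07Rik, had 0.26 and ended 84.7 kb before the stretch. Another probe of that gene had −0.25, and further left came −0.26, −0.059, −0.0027 and −0.47, the last within the range of the stretch. The next to the right were probes of Rdx, radixin, which links actin to the cell membrane, at 0.69 and 0.069, the nearer one 119 kb away. Beyond Rdx came 0.43, 0.063, −0.28 and 0.21. The 30 probes to the left had a median of −0.0045 and the 30 to the right 0.049, with SDs of 0.39 and 0.33. The order 1810046K07Rik, Arhgap20, Fdx1, Rdx is that of GRCm38. On the embryo array the 9 probes had a median of 0.18, and 3 of them lay below 0.

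The chromosome 9 probes were brighter than most, 7 of them among the 20256 brighter autosomal probes, and 1 of the 9 was past 1.5-fold. Their spots lay in columns 12 to 205 and rows 33 to 185, where local medians ran from −0.22 to 0.19. After subtraction the median was −0.50, with an SD of 0.088 and a range of −0.65 to −0.38. Under normexp it was −0.47. The chromosome 3 stretch moved further under normexp, from −0.94 to −0.45. Its probes were dimmer, with a median mean log2 signal of 9.83 against 10.59 for chromosome 9. The effect of normexp by signal was not tested, so the 2 normexp values do not compare the shifts of the stretches. The difference between the adult and embryo values was not tested, as each stage has 1 array.

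Consecutive low probes were also counted without a segmentation. The count used the same ratios and was added after their values were seen, so it is not separate support for these stretches. Runs in which every probe was at or below −0.3 had 1 probe in 3904 cases, 2 in 539, 3 in 74, 4 in 10 and 5 in 2 cases. None had 6 to 8 probes. Beyond these there were 2 runs, the 9 probes of chromosome 9 and the 21 of chromosome 3. Runs at or above 0.3 had at most 6 probes, in 2 cases. These were on chromosome 1 from 39842470 to 39942082, with D1Bwg0212e, AA867014, 4933400E14Rik and Creg2 (median 0.47, embryo −0.16), and on chromosome 17 from 61274586 to 61842674, with Fert2 (0.37, embryo −0.10). The lower runs of 5 probes held 9630001P10Rik, 5730507H05Rik and Mlr1 on chromosome 5 (−0.52, embryo 0.038) and Slc17a8 and Scyl2 on chromosome 10 (−0.42, embryo 0.14).

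The equal-weight segmentation called 2 further losses, both short. That of chromosome 4 was called in 11 of the 16 settings and that of chromosome 7 in 8, and neither under normexp or with signal weights. On chromosome 4 from 87537226 to 87559678, 5 probes had −0.78, −0.46, −0.30, −1.75 and −0.92 along the chromosome. Its lowest probe had signals of 247 in offspring and 815 in control, and its brightest, 4080 and 4942, had −0.30. The stretch lies among type I interferon genes, between the probe of Ifnb1, which encodes interferon beta, at −0.37, and that of Ifna12 at −0.18. In GRCm38 Ifna15, Ifna14 and Ifna9 lie between these genes. The 5 probes carry none of these names. On the embryo array their median was 0.15, with 2 below 0. Subtracting the local array median gave −0.64, and normexp −0.32.

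On chromosome 7 from 98931553 to 98982728, 3 probes had −1.30, −0.88 and −1.35. Dub1a (now Usp17lb), of a family of deubiquitinating enzymes, had signals of 260 in offspring and 473 in control. The probe of TC1444636, at 83.1 in offspring and 209 in control, was not well above background. None of the 3 was among the brighter probes, and their embryo values ran from 0.35 to 0.57. The stretch lies among odorant receptor genes, where Olfr661 to the left had 0.078 and Olfr665 to the right 0.32. Normexp brought the median to −0.035, and the stretch was not called when dim probes or spots with surrogate signals were left out.

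Taken as medians over 10 neighbouring probes, autosomal DNA of offspring and control differed little. Of 4040 windows 2 were at least 1.5-fold lower (0.0495%), both in the chromosome 3 stretch at −0.99 and −0.88, and 0 were at least 1.5-fold higher. The SD over windows was 0.0996 over a range of −0.99 to 0.40. At a shift of 0.3, 14 windows were low (0.347%) and 11 high (0.272%). The third lowest covered the chromosome 9 stretch, at −0.50 with 9 of 10 probes below 0. The fourth, on chromosome 16 from 37641357 to 40247855 with Igsf11, a cell adhesion molecule, had −0.48, but 7 of its 10 probes were usable and its SD was 0.51.

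The windows that followed were closer to the rest and more mixed. Windows on chromosome 1 with Dst, which encodes dystonin, had −0.35 (SD 0.48), on chromosome 6 with the homeobox genes Dlx6 and Dlx5 −0.34, and on chromosome 3 with Setdb1, a histone methyltransferase, and Hormad1, a meiosis protein, −0.34. The interferon window of chromosome 4 had −0.33. Windows with Acox2, of bile acid synthesis, on chromosome 14 and with Mb, myoglobin, on chromosome 15 had −0.33 and −0.32. All 6 held probes on both sides of 0.

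The highest window, on chromosome 1 from 39842470 to 40373255 with Creg2 and the kinase gene Map4k4, had 0.40, with 8 of 10 probes usable. On chromosome 5 from 3626045 to 3825373, with Ankib1 and Ccm1, a gene of blood vessel integrity, the median was 0.34 and none of the 10 probes lay below 0. Its SD, 0.19, was the smallest among the 20 windows named here. The other 8 high windows lay between 0.30 and 0.32, on chromosomes 2, 3, 7, 9, 16, 17 and 18, and each held 1 to 4 probes below 0. Of the 10 highest windows, 2 had embryo medians above 0, at 0.018 and 0.035.

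The autosomal ratios as a whole had a median of 0.010 and an SD of 0.32 over probes. Their quartiles were −0.16 and 0.18, and they ran from −3.19 to 2.28. At least 1.5-fold higher were 923 probes (2.28%), against the 1636 that were at least 1.5-fold lower. Dim probes supplied most of both. Of 10 equal classes by mean signal, the dimmest had 22.9% of its probes lower and 11.6% higher. The shares were 8.57% and 4.96% in the next class, 4.02% and 2.74% in the one after, and 0.197% and 0.0247% in the brightest.

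The spread of the ratios also narrowed with signal. A robust SD of the ratios, from the median absolute deviation, was 0.656 in the dimmest class, 0.371 in the next and 0.175 in the brightest, and the error that the scanner software assigned to a probe had medians of 0.81, 0.44 and 0.22 there. Among the 20256 brighter probes 78 were lower and 69 higher, against 1558 and 854 among the 20257 dimmer ones. Without the chromosome 3 stretch 1619 autosomal probes were lower. After the local array median was subtracted 1216 were lower and 1028 higher, so lower probes made up 54.2% of those past 1.5-fold, against 63.9% before and 93.1% of the 29 past it under normexp.

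Repeat spots of the same probe gave a direct measure of the technical error. For 296 autosomal probes spotted 3 times the median SD over spots was 0.19 here and 0.065 on the embryo array. It was 0.24 for 216 dimmer and 0.12 for 80 brighter adult probes. Their means had an SD of 0.27 between probes, and 3 were at least 1.5-fold lower and 9 higher. Of these probes 252 had every spot usable.

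Single spots of the highest and lowest of those 252 show the spread behind a mean. Ghr, the growth hormone receptor gene, had 0.82, 0.58 and 1.09 over its 3 spots. Psg17, a pregnancy-specific glycoprotein gene, had 1.09, 0.86 and 0.46. Enah, a regulator of actin filaments, had 0.68, 0.58 and 0.63, the closest of those named. The probe of Ganab, the alpha subunit of glucosidase II, placed by the files on chromosome 2, had 0.60, 0.53 and 0.96. These 4 lay above 0 in all 3 spots, and the other of the 5 highest, D10Ertd718e, had 1.24, 0.52 and −0.0047. Of the 5 lowest, Elp4, a subunit of the Elongator complex, had −1.09, −0.92 and 0.073. Zfp537 and G6pd2 also had 1 spot above 0, at 0.089 and 0.017. Rnf130 (−0.41, −0.27 and −1.02) and Dach1, a regulator of eye and limb development (−0.45, −0.14 and −1.10), lay below 0 in all 3.

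Neighbouring probes were almost unrelated in ratio. Between adjacent usable probes Pearson's r was 0.096 for 126 pairs under 0.1 kb apart or overlapping, 0.045 for 676 pairs at 0.1 to 1 kb, 0.025 for 9957 at 1 to 10 kb and 0.011 for 23637 at 10 to 100 kb. These probes share the array and its channels, and the pairs overlap. For the closest pairs the signals themselves correlated at 0.42. The median gap between autosomal probes was 21.4 kb.

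Genes read by several probes seldom differed as a whole. Of 2199 autosomal genes with at least 3 usable probes spanning 1 kb or more, 6 had a median at least 1.5-fold lower in offspring (0.273%) and 0 at least 1.5-fold higher (0%). With 1 or more usable probes, 487 of 22616 genes were lower (2.15%) and 297 higher (1.31%). In 0 of the 2199 genes was every probe past 1.5-fold.

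The lowest gene was F730047E07Rik (now Mms22l), which acts in the repair of stalled replication forks, at −0.99. Its 2 low probes, −1.03 and −0.99, had offspring signals of 110 and 115 against control signals of 221 and 224, and its bright probe, 1068 on both sides, had −0.022. The probes named Gbp1, of the chromosome 3 stretch, followed at −0.82, although they may not all lie in 1 gene. The gene 2310026J01Rik (now Pla2g4e), a cytosolic phospholipase, had −0.78, from −0.95 and −0.78 in dim probes and −0.15 in a bright one. The gene 4930568D16Rik had −0.63 with probes from −0.79 to 0.34. Cyb561d2, of the cytochrome b561 family, had −0.67, −0.62 and −0.091. Nin, which encodes the centrosomal protein ninein, had −0.65, −0.59 and 0.14. In F730047E07Rik, 2310026J01Rik, 4930568D16Rik and Nin the brightest probe was the one nearest to 0 or above it.

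Under normexp 9 of the 12 lowest genes had medians above 0. The exceptions were Gbp1 at −0.23, Cyb561d2 at −0.066 and 2700045P11Rik at −0.37. The other 6 of the 12 lowest genes lay between −0.54 and −0.50. They were Rnf26, a ubiquitin ligase gene, Ttf1, which ends transcription by RNA polymerase I, C630016O21Rik (now Zfp719), Med28, a Mediator subunit, 2700045P11Rik (now Shisa9), which binds AMPA receptors, and LOC208231. The SD over their probes ran from 0.20 for LOC208231 to 0.70 for Rnf26, whose probes had −1.04, −0.54 and 0.34. For Ttf1 the probe with signals of 2824 in offspring and 4014 in control had −0.53 and another of 2819 and 2460 had 0.17.

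The 12 highest genes lay between 0.44 and 0.58, and between 0.16 and 0.25 under normexp. Gmds, the dehydratase that starts the synthesis of GDP-fucose, had the highest median, 0.58, from 0.58, 1.06 and 0.49. It was the only 1 of the 12 with no probe under 0.3. Supt6h (now Supt6), a transcription elongation factor, had 0.55, Ppil1, a cyclophilin of the spliceosome, 0.51, LOC433043 0.50 and 1110001D15Rik (now Col6a4), a collagen VI chain, 0.49. Zfp282 and the GABA receptor gene Gabra2 had 0.49 and 0.48, Tead3, a transcription factor of the Hippo pathway, 0.48, and Ep400, a chromatin remodeller, 0.47. LOC433332 had 0.47, BC048937 (now Baiap2l2) 0.46 and Dhx30, an RNA helicase, 0.44. In 8 of the 12 genes 1 probe lay below 0, as in Ppil1 with 1.02, −0.23 and 0.51.

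In a few genes all probes agreed. Every probe was at or below −0.3 in 5 of the 2199 genes (0.227%) and at or above 0.3 in 3 (0.136%), and these were named after their values were seen. The lower ones were Gbp1, Arhgap20 of the chromosome 9 stretch (SD 0.074), Pon3, a paraoxonase (median −0.45, SD 0.069), Kcne4, a potassium channel subunit (−0.45, SD 0.092), and Plekha8 (−0.40, SD 0.13). Whether the probes named Gbp1 all lie in 1 gene was not analysed. The higher ones were Gmds, Itgb4, the integrin beta 4 subunit (0.40, SD 0.072), and Rnf134 (0.36, SD 0.033). Of these 8, Gbp1 had an embryo median of the same sign beyond 0.1, at −0.81. Arhgap20 had −0.068, Pon3 0.064, Kcne4 0.11, Plekha8 0.21, Gmds −0.27, Itgb4 0.00081 and Rnf134 0.029 on the embryo array.

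Of 17 genes of DNA methylation 0 were at least 1.5-fold lower and 0 higher, against 2.15% and 1.31% of all 22616 genes, so a count of 0 is near the background in a list of this size. The list median was −0.027 (SD 0.13), against 0.0096 over all genes. Dnmt3l itself had probes at 0.14 and −0.32, on signals of 794 in offspring and 710 in control for the first and 536 and 657 for the other. Their place relative to the altered part of the gene was not analysed here. The 45 probes within 0.5 Mb of Dnmt3l had a median of −0.0081, the 77 within 1 Mb 0.0053 and the 361 within 5 Mb −0.0081, against embryo medians of −0.0021, −0.012 and 0.086.

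The DNA methyltransferases and related genes had the following medians. Dnmt3a, a de novo methyltransferase, had −0.11 (SD 0.059, 3 probes), Dnmt3b, the other, 0.056 (2 probes), and Dnmt1, which copies methylation at replication, −0.013 (3 probes). Hells, a remodeller needed for methylation of repeats, had −0.048, Dppa3, which protects maternal methylation after fertilisation, 0.12, and Dnmt2 (now Trdmt1), a tRNA methyltransferase, 0.057. Of the methyl-CpG-binding domain family, Mbd1 had 0.31 (1 probe), Mbd4, a DNA glycosylase, −0.25, Mbd2 −0.15 and Mbd3 −0.0034. The Tet oxidases had −0.020 for Cxxc6 (now Tet1) and −0.17 for E130014J05Rik (now Tet2). The 2 names now joined as Tet3 had −0.082 (B430006D22Rik) and −0.080 (D230004J03Rik). The 3 probes of D230004J03Rik are placed from 83709443 to 113399181 on chromosome 6, too far apart to lie in 1 gene. Tdg, which excises oxidised methylcytosine, had −0.027 and Dmap1 −0.011.

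Male germline genes that keep transposons silent numbered 15, with 0 past 1.5-fold and a median of 0.049, at the same background of 2.15% lower and 1.31% higher. Tdrd6, a tudor protein of germ granules, had 0.40 and 0.44, and Asz1, of the piRNA pathway, 0.34 and 0.50. Piwil1, a piRNA-binding protein, had 0.53 from 1 probe, and Piwil2 went the other way, at −0.48 from 1 probe. The probe named Piwil2 is placed on chromosome 9, and whether it lies in that gene was not analysed. The 19 genes of meiosis and synapsis also had 0 past 1.5-fold (median 0.093), with Hormad1 at −0.87 and −0.12. Of 14 genes of chromosome segregation 2 were lower: the spindle checkpoint genes Mad2l1 at −0.97, from 1 probe, and Bub1b at −0.67, from −1.39 and 0.048, against 2.15% of all genes. The 29 DNA repair genes had 0 past 1.5-fold, and Fanca, of the Fanconi anaemia pathway, was farthest from 0 at −0.37 (3 probes).

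Imprinted genes, which keep the methylation set in 1 parent's germ cells, were split by the parent that methylates their control region. Of 28 genes with maternally methylated control regions 1 was higher and 0 lower, against 1.31% and 2.15% of all genes, with a median of 0.029. This was Peg3, a zinc finger gene expressed from the paternal copy, at 0.59, from probes at 1.29 and −0.095. Igf2r, the receptor that clears the growth factor IGF2, had 0.43 from 0.84 and 0.033. Of 8 genes with paternally methylated control regions 1 was higher, Dio3, a deiodinase of thyroid hormone, at 0.59 from 1 probe, and the list median was −0.0018. A single gene in lists this short is not a result about them. Dlk1 and Rtl1, of the same domain, had −0.096 and −0.037.

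Gene families in tandem arrays, where copy number often varies between mouse strains, were set against all genes without matching the number of probes per gene. The odorant receptors, for example, had 651 probes for 582 genes. Genes were read from usable probes only. Of the 39437 usable autosomal probes taken singly, 1316 were at least 1.5-fold lower and 841 higher. Of all autosomal probes, with the unusable ones included, the shares were 4.04% and 2.28%. Over 29 such lists 1111 genes were measured, of which 38 were lower (3.42%) and 17 higher (1.53%), against 2.15% and 1.31% of all 22616 genes, with medians of −0.030 and 0.0096. Among the 582 odorant receptor genes 21 were lower and 9 higher, with a median of −0.029, and the 4 farthest from 0 were all high: Olfr1228 at 1.34, Olfr1310 at 1.24, Olfr3 at 1.23 and Olfr798 at 1.22. Among 56 vomeronasal receptor genes, which detect pheromones, 4 were lower and 1 higher, led by V1re1 (now Vmn1r229) at −1.56 and V1rj2 (now Vmn1r89) at −1.42. Each of these 6 rests on 1 probe.

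Many of the other families had no member past 1.5-fold. The rest had from 1 to 5, where 2.15% of all genes were lower and 1.31% higher, so most of these counts are near the background. Of 68 keratin and keratin-associated genes 3 were lower and 2 higher, with Krt20 at 1.45 and Krtap13 at −1.23. Of 65 cytochrome P450 genes 1 was lower, Cyp17a1 of steroid synthesis at −0.69, and 2 were higher, Cyp4f14 at 0.76 and Cyp2c55 at 0.69. Of 38 Hox genes 1 was lower, Hoxc12 at −0.61, and 1 higher, Hoxd11 at 1.14. Of 27 defensin genes 1 was lower, Defb40 at −0.998, and 1 higher, Defb9 at 0.59. Of the single members past 1.5-fold in other lists, Tas2r117 of the taste receptors had −1.18, Klk4 of the kallikreins −0.92, Rnase2 (now Ear2) −0.85, 9030611N15Rik (now Akr1c14) of the aldo-keto reductases −0.71, Serpina11 −0.67 and the histone gene Hist1h2ag (now H2ac11) 0.75.

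Among lists of at least 5 genes the medians ran from −0.16 to 0.11. The lowest was that of 34 serpins, at −0.16 (SD 0.20), followed by 22 natural killer receptor genes at −0.12 and 18 kallikreins at −0.11. The highest was that of 5 tandem Trim genes, at 0.11, which turned to −0.043 under normexp. Of the 4 guanylate-binding protein genes by probe name, the 2 in the chromosome 3 stretch had −0.82 and −0.52, and Mpa2 (now Gbp4) and 5830443L24Rik (now Gbp8), placed by the files on chromosome 5, had −0.13 and −0.024. No gene of the natural killer receptors, Schlafen genes, protocadherins, carboxylesterases, glutathione transferases or class I and II MHC lists was past 1.5-fold.

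No whole autosome stood apart. Medians ran from 0.0018 on chromosome 19 to 0.020 on chromosome 5, and none left the range of the remaining autosomes by more than the SD of those. Shares of probes at least 1.5-fold lower ran from 2.54% on chromosome 5 to 5.05% on chromosome 18, and of probes at least 1.5-fold higher from 1.73% on chromosome 19 to 2.90% on chromosome 18. The medians of the first 5 Mb with probes had an SD of 0.042 between chromosomes and those of the last 5 Mb 0.034. The lowest and the highest of these ends were both on chromosome 18, at −0.090 over its 32 last probes and 0.097 over its 68 first ones. The 3257 probes named only by position had an SD of 0.36 and the 37256 with a gene or transcript name 0.32, and 4.33% of the probes named by position and 4.01% of the others were at least 1.5-fold lower, and 3.78% and 2.15% at least 1.5-fold higher.

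Adult probes past 1.5-fold were set against the embryo array, where 3.53% of the autosomal probes measured on both were at least 1.5-fold lower and 3.43% higher. Of 1635 lower adult probes measured on both, 43 were lower there too, which is 2.63% of the adult and 3.00% of the 1431 embryo probes, and 15 of the 43 lay in the chromosome 3 stretch. Of 922 higher adult probes 15 were higher on both, 1.63% of the adult and 1.08% of the 1390 embryo probes. In opposite directions, 94 were lower on the adult and higher on the embryo array (5.75% of the adult ones), and 120 higher on the adult and lower on the embryo array (13.0%). Across 40482 autosomal probes the ratios correlated at −0.25 (Pearson), at −0.23 over the 20239 dimmer and −0.35 over the 20243 brighter probes. The arrays share their probes and carry the offspring in opposite dyes, and the part of dye in this correlation was not tested.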

How the data were processed

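Genomic DNA of 1 adult and 1 embryo pair was hybridised to Agilent 2-colour arrays, with groups and dyes as the labels give them. The deposited scanner files give intensity values from Agilent Feature Extraction 9.1.1.1, per the file headers (9.1 per the submitters' processing notes), background-subtracted, spatially detrended and scaled by linear dye normalization. The LogRatio column, a log10 ratio of Cy5 over Cy3 per the file headers, matched the deposited series matrix, also log10, with a largest difference of 0.0005 over 44050 spots, and its medians were −0.0032 (adult array) and 0 (embryo array). The error column of the deposited files, converted to log2, is the software's own error of a ratio. Coordinates are those of the files, with build and pooling not given in the sources used here.

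On the adult array 1030 control spots and 8 outlier-marked spots were left out, 1 saturated spot was kept, and surrogate signals entered 2.65% of autosomal probes. The log2 ratio of offspring over control was averaged over spots of a probe and centred on the array median, with no loess. Segments came from optimal partition by least squares, each added segment costing 3 noise variances (noise 0.27, from neighbouring probes) multiplied by the natural log of the chromosome's probe count, with at least 3 probes, a median of 0.3 or more from 0, and at most 90% of a chromosome. Signal weights and the correction for array position were added after the data were seen. Genes needed 3 usable probes spanning 1 kb, and called means past 1.5-fold. The segmentation was tested on simulated ratios with independent noise and no gradient over the array, and the gene and window steps were not.

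The members, the 37 gene lists and the rules were chosen with earlier results of these data known. The text names every called segment, the 10 lowest and 10 highest windows, the 12 lowest and 12 highest genes, the 5 lowest and 5 highest probes spotted 3 times, up to 4 members of a list with the largest ratios and the whole methylation list. Runs, the chromosome 9 stretch and genes whose probes agree were added after their values were seen. RefSeq tables (GRCm38.p6) gave names, gene order and promoters; of 22164 gene names 10647 were current symbols and 5403 single synonyms. Alternatives were normexp, loess, the deposited matrix, centring, signal and spot filters, thresholds and window sizes. Tools were Python 3.11.15 (numpy 2.4.6, pandas 2.3.3) and, for normexp and loess, limma 3.58.1 in R 4.3.3.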

Additional observations from a re-analysis of the deposited data

Results flagged for a closer look

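The X chromosome, outside the autosomal probes described here, had a median of −0.86 (log2) on the adult array, below every autosome, although both channels are labelled female. On 3 stretches the adult probes all lay below 0 while the embryo median lay above it. These were chromosome 4 (adult −0.78, embryo 0.15), chromosome 7 (adult −1.30, embryo 0.43, all 3 embryo probes above 0) and chromosome 9 (adult −0.50, embryo 0.18). The gene 4930568D16Rik had an adult value of −0.63 and an embryo value of 0.24, and Cyb561d2 −0.62 and 0.021. None of these differences between the arrays was tested, since each stage has 1 array. The stretches and genes were named for low adult ratios. Across all 40482 autosomal probes measured on both arrays, adult and embryo ratios correlated at −0.25 (Pearson). The arrays carry the offspring in opposite dyes, and the part of dye was not tested. Under normexp the adult medians were −0.32 for chromosome 4, −0.035 for chromosome 7 and −0.47 for chromosome 9.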

How the results depend on the processing

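No paired analysis was possible because each stage has 1 array. Of the values that answer a comparison, 81 changed little under the alternatives and 37 moved, and of the single genes, lists and stretches 510 moved by less than their spread, 20 by more, and 4 genes past 1.5-fold turned sign. Counting values within their spread too, 9 of 192 gene medians, 21 of 296 list medians and 0 of 32 stretch medians turned sign, all 9 genes and 13 of the lists under normexp. With normexp, probes at least 1.5-fold lower numbered 27 and higher 2, genes lower 0, windows past 0.3 numbered 3 lower and 0 higher, list members 0 lower and 1 higher (against 40 and 19), and autosome medians ran from −0.011 to 0.013. Under it F730047E07Rik had 0.11, 2310026J01Rik 0.0049, 4930568D16Rik 0.11 and Nin 0.15, and Rnf26 (0.081), Ttf1 (0.026), C630016O21Rik (0.091), Med28 (0.084) and LOC208231 (0.061), not past 1.5-fold before, were also above 0. The cause was not tested. Without dim probes 9 windows were low and 5 high, without surrogate spots 6 were high, with loess 3 genes and from the deposited matrix 1 gene was higher. Centring on autosomes gave medians from −0.0086 to 0.0091 and 7 high windows. Corrected for array position there were 9 segments, 3 lower genes, and 8 low and 3 high windows. At 2-fold, probes numbered 447 lower and 184 higher and genes 0 lower. With 2 probes and no span 94 genes were lower and 45 higher. Segments numbered 26 with a penalty factor of 2, 1 with 5, 1 with all probes in the penalty and 5 with outlier spots kept. Windows of 5 probes gave 158 low and 136 high, those of 20 gave 2 and 0. The brighter probes alone gave 78 lower and 69 higher probes and 0 lower genes. The number of arrays and the dim signal limit the precision.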

Other observations

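Corrected for array position, the segmentation called 5 more stretches, a correction chosen after the data were seen. All 5 were also called with a penalty factor of 2, that of chromosome 16 with loess too, and none in the other settings run. Losses lay on chromosome 11 from 11247448 to 11484139 with Zpbp, a protein of the sperm acrosome (6 probes, −0.52, embryo 0.096), on chromosome 12 from 12465046 to 12580742 with Ddx1, an RNA helicase (3 probes, 2 usable, −1.27, embryo 0.20), and on chromosome 16 from 37641357 to 38965358 with Igsf11 (6 probes, 3 usable, −0.64, embryo 0.12). Gains lay on chromosome 7 from 5926130 to 6160431 with Peg3 and Usp29 (3 probes, 2 usable, 1.40, embryo −0.0025) and on chromosome 14 from 44534057 to 44776418 with Slc35f4 (3 probes, 2 usable, 1.35, embryo −0.15). The chromosome 4 stretch then began 1 probe earlier, at Ifnb1 (6 probes, −0.54).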
